A study of Mus musculus with 12 samples.

Results

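The regions described here are sites on mouse chromatin that carried glucocorticoid receptor (GR) signal in cells labelled NI, before any dexamethasone (Dex), and carried it again after Dex and after tumour necrosis factor (TNF) plus Dex. Peaks of all 11 peak lists that shared at least 1 bp were merged into 47493 regions. A region was kept when it was called in at least 2 of 3 NI, at least 2 of 3 DEX and at least 2 of 3 TNFDEX libraries, which gave 1138 regions. One lies on the mitochondrial genome, and the other 1137 nuclear regions are called the members below. The members were selected on their peak calls in the NI, DEX and TNFDEX libraries, so levels in those libraries are given as a description. Peaks of the libraries of TNF alone took part in the merging. Beyond that, the calls and levels in those libraries, the position of the members and their sequence played no part in the choice.

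All libraries came from BWTG3 cells, a mouse hepatoma line, immunoprecipitated with a rabbit anti-GR antibody and sequenced (ChIP-seq). The cells had been kept in serum-free medium for 24 h. The groups were NI (3 libraries, no agent named in the title), DEX (3 libraries, 1 µM Dex), TNF (2 libraries, 1000 U/ml recombinant TNF) and TNFDEX (3 libraries, the same TNF added 1 h ahead of the same Dex). Stimulation lasted 3 h in all, and the series design calls the replicates biological. One input library of unprecipitated DNA served for background, and only its tags as listed beside each peak were used here. A hepatoma line is transformed and stands in for hepatocytes with that limit. Peaks do not measure expression, so the cell type was not checked against marker transcripts.

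GR is a ligand-activated transcription factor. In most cells it waits in the cytoplasm with heat shock proteins, and a glucocorticoid such as Dex sends it to the nucleus, where it binds DNA as a dimer at inverted repeats of a hexamer or is held at chromatin by other factors such as AP-1. In liver, GR drives genes of gluconeogenesis, amino acid breakdown and circadian timing and restrains inflammatory genes. Chromatin that yields GR signal without added hormone is usually called prebound.

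The reference held promoter windows for the 87 members that overlapped an annotated gene start. The 10 sequences printed next were picked by DEX over NI ratio, so the contrast in those ratios was set by the choice. The first 6 stand at the members with the largest DEX over NI ratios of mean tag counts among these, and the last 4 at members of widely expressed genes whose levels stayed near those in NI. Each is the 250 bases ahead of the gene start on the gene's own strand, 5′ to 3′, from RefSeq for GRCm38.p6, the assembly whose chromosomes mm10 uses. Capitals mark the GR hexamer AGAACA, the AP-1 motif TGANTCA or the GC box GGGCGG on either strand.
Gm46038: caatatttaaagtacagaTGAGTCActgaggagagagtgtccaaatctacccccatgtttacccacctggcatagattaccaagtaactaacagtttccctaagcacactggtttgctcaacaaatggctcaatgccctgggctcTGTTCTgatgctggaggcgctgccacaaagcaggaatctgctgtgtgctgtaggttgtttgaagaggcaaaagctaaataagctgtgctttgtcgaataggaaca
Gm15889: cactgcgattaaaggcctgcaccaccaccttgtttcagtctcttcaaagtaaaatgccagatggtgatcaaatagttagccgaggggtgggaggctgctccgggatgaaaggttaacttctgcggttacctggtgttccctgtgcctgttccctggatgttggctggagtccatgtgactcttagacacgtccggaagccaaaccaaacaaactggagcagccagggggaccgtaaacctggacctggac
Gm39841: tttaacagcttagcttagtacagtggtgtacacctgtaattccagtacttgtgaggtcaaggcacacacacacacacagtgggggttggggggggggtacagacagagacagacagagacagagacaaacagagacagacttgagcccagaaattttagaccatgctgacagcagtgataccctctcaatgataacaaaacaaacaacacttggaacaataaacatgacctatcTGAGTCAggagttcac
Herpud1: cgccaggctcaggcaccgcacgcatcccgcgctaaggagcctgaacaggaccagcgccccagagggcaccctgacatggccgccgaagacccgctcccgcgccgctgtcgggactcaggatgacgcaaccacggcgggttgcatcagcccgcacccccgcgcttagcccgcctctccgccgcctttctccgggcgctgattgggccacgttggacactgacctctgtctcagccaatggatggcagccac
Foxj3: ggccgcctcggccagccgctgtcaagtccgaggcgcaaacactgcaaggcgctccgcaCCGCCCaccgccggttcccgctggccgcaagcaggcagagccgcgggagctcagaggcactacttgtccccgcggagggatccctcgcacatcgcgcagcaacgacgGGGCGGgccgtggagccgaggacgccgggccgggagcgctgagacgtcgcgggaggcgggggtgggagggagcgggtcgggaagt
Itih2: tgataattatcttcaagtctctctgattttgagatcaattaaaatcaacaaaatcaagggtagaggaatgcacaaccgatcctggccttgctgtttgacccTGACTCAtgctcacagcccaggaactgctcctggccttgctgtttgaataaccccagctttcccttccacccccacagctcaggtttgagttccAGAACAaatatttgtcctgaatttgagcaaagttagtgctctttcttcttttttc
Kmt2a: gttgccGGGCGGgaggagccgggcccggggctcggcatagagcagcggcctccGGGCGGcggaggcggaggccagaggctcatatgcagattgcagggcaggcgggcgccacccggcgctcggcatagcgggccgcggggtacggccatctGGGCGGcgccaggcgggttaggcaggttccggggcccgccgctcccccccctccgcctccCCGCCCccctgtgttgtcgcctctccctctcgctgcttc
Mrpl12: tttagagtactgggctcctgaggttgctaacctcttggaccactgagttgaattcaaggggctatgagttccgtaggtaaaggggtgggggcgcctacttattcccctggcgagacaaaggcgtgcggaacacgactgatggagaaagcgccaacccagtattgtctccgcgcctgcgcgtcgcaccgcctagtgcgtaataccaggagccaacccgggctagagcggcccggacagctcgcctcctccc
Hspa5: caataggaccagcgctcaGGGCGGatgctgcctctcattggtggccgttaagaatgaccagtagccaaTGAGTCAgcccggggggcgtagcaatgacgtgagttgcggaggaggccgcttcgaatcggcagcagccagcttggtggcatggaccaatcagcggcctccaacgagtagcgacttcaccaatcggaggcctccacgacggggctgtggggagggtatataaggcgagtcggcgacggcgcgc
Rplp0: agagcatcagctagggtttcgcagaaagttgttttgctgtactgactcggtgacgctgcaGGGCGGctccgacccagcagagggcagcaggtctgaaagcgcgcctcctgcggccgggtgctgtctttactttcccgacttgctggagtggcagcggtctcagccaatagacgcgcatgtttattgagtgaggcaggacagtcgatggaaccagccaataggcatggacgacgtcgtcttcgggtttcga
Gm46038, Gm15889 and Gm39841 are annotated lncRNA genes, and the others code for protein. The Gm46038 window (chr8:34456668-34456917, plus strand) shared 230 bases with its member and holds 1 AP-1 motif and 1 GR hexamer. Its member had an 8.66-fold higher mean in DEX than in NI. The Itih2 window (chr2:10130684-10130933, minus strand), ahead of a gene for a plasma inter-alpha-trypsin inhibitor chain made in liver, also holds 1 of each, shared 199 bases and had a ratio of 2.19-fold. Gm39841 (chr2:69801888-69802137, plus strand) holds 1 AP-1 motif (4.92-fold), Gm15889 (chr8:94377625-94377874, plus strand) and Herpud1 (chr8:94386179-94386428, plus strand) hold none of the 3 motifs (6.78-fold and 2.54-fold), and Foxj3 (chr4:119539411-119539660, plus strand) holds 2 GC boxes (2.46-fold). Among the steady sites, Kmt2a (chr9:44881290-44881539, minus strand), which encodes a histone methyltransferase, holds 4 GC boxes and shared 217 bases with a member at 1.28-fold. Mrpl12 (chr11:120484387-120484636, plus strand) holds none and had 1.09-fold. Hspa5 (chr2:34771840-34772089, plus strand) holds 1 GC box and 1 AP-1 motif, and Rplp0 (chr5:115559217-115559466, plus strand) 1 GC box, at 0.939-fold and 0.785-fold. The members of Herpud1, Hspa5 and Rplp0 lay mostly past the start and shared 7, 38 and 11 bases with the printed window. A match is a description of letters and not a site.

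Across all member windows, the GC box was the most frequent of the motifs searched. The 87 members at a gene start had 106 annotated windows of 300 bases (250 before and 50 after the start), because some had several starts. GGGCGG on either strand was present in 54.7% of them, against 35.7% of all 32851 windows in the reference and 27.6% of the 134 windows at Dex-dependent regions. Dex-dependent regions are the 5318 regions called in 0 of 3 NI, at least 2 of 3 DEX and at least 2 of 3 TNFDEX libraries. AGAACA went the other way, at 15.1% of member windows, 26.1% of Dex-dependent windows and 19% of all windows. The full GR palindrome, this hexamer and its inverted copy with 3 bases between them, occurred in 0 of 106 member windows, 2 of 134 Dex-dependent windows and 3 of all windows. TGANTCA was at 15.1%, 19.4% and 7.81%. The ETS motif CCGGAAG was at 17%, 10.4% and 8.86%, the CRE motif TGACGTCA at 4.72%, 5.22% and 1.79%, the NRF1 motif at 2.83%, 1.49% and 0.971%, CCAAT at 27.4%, 44% and 37.4% and the E-box CACGTG at 7.55%, 2.99% and 7.15%. Each was searched on both strands. The palindrome contains the GR hexamer, and the other motifs were counted with no regard to overlap. Median GC content was 59.7% in member windows, 51.2% in Dex-dependent windows and 52.7% in all windows. Motif shares move with GC content, and its part in them was not tested. The windows describe 87 members, and sequence of the other 1050 was not analysed here.

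Before the levels are compared, 2 kinds of library have to be separated. Signal on the mitochondrial genome was far higher in NI 3, DEX 3, TNF 2, TNFDEX 2 and TNFDEX 3, from 70983 to 108166 normalized tags, than in NI 1, NI 2, DEX 1, DEX 2, TNF 1 and TNFDEX 1, from 1290 to 6953. The labels name no batch, so these are called libraries of high and of low mitochondrial signal. All libraries were deep, with 39228805 to 51141996 tags. They held 2522 to 22589 nuclear peaks. A normalized tag count is the number of tags in a peak scaled to 20000000 tags per library. At a member, the median count rested on 21 to 100.1 unscaled tags, which bounds the counting precision.

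The members were nearly complete in both NI libraries of low mitochondrial signal and sparse in the third. NI 1 called 1118 of the 1137, NI 2 called 1131 and NI 3 called 208, so that 929 members rest on NI 1 and NI 2 with no call in NI 3. The median normalized tag count of called members was 12.7 in NI 1, 19.3 in NI 2 and 10.2 in NI 3. With Dex it was 21.3, 29.6 and 23.7 in DEX 1, 2 and 3, with 1091, 1131 and 1013 members called. With TNF plus Dex it was 41.5, 15.3 and 22.2 in TNFDEX 1, 2 and 3, with 1131, 754 and 1114 called. With TNF alone it was 27.9 in TNF 1 and 11.5 in TNF 2. In every group but DEX the lowest median came from a library of high mitochondrial signal.

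**Figure D1:**
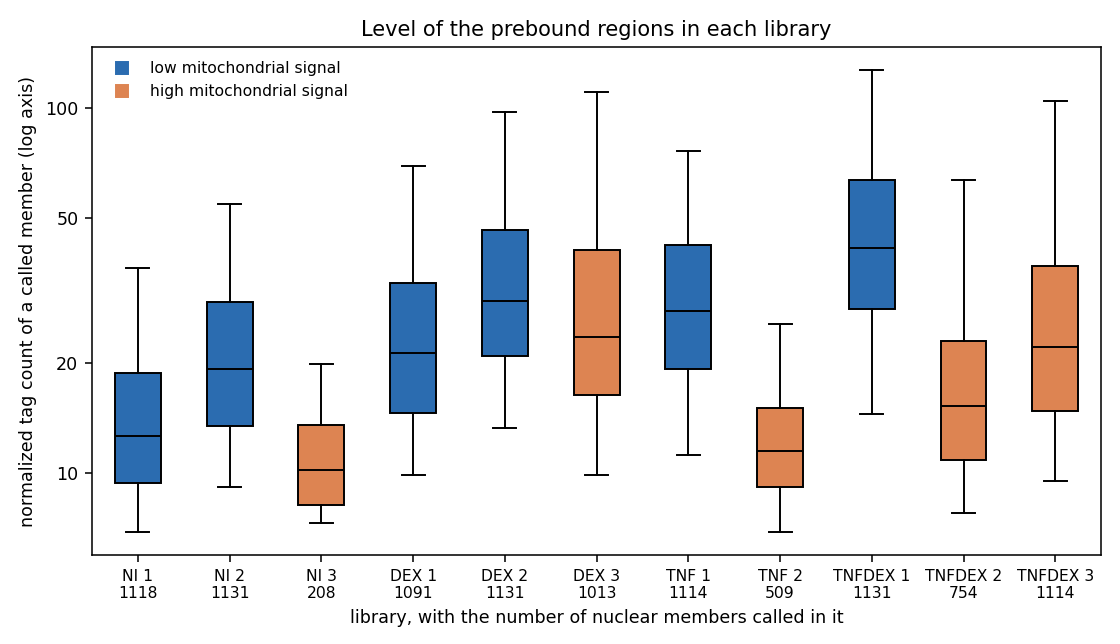
Normalized tag counts of the nuclear members (log axis) in each of the 11 libraries, with the number of members called below each name. Boxes give the quartiles, lines the median and whiskers the 5th and 95th percentiles of called members. The median runs from 10.2 in NI 3 to 41.5 in TNFDEX 1.

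Members were a large share of what NI 1 and NI 2 held and a smaller share of what NI 3 and the Dex libraries held. They made up 56.7% of the 2008 regions called in at least 2 NI libraries, 12.3% of the 9286 such DEX regions and 9.99% of the 11395 such TNFDEX regions. Their share of all nuclear peak tags was 31.5% in NI 1, 31.7% in NI 2 and 11.1% in NI 3. It was 26.5% in TNF 1 and 18.9% in TNF 2. All DEX libraries fell between 10.2% and 14.3% and all TNFDEX libraries between 9.65% and 10.2%. Of the 1137 members, 183 were called in 3 of 3 NI, 961 in 3 of 3 DEX, 725 in 3 of 3 TNFDEX, 147 in 3 of 3 of all those groups and 117 in all 11 libraries. The number of members depended on single libraries. When the other 2 libraries of the group both had to call a region, 203 regions, the mitochondrial one included, met the rule without NI 1, 190 without NI 2, 732 without TNFDEX 1 and 749 without TNFDEX 3. Just inside the threshold, the 954 members with 2 NI calls had a median mean count of 14.9 in NI, 23.6 in DEX and 26.5 in TNFDEX. Just outside it, 985 regions with 1 NI call that met the other conditions had medians of 11.1, 18.9 and 23.1.

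The libraries of TNF alone, which the rule used only for merging, also held the members. Of 1137 members, 1118 (98.3%) were called in at least 1 TNF library, against 25.6% of all nuclear regions and 18.3% of the 5318 Dex-dependent regions. In both TNF libraries the count was 505 of 1137 (44.4%), against 1.94% of all nuclear regions and 0.677% of Dex-dependent regions. Nearly all of this came from TNF 1, which called 1114 members, while TNF 2 called 509 (44.8%). The 183 members with 3 NI calls were in both TNF libraries in 76% of cases, and the 954 with 2 NI calls in 38.4%. The share was also high outside the members. The 985 regions with 1 NI call that met the other conditions were in at least 1 TNF library in 85.8% of cases and in both in 13.7%. The 870 NI regions that were not members were called in at least 1 TNF library in 70.7% of cases. NI 1, NI 2 and TNF 1 are all of low mitochondrial signal, and its part in these shares was not tested.

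**Figure D2:**
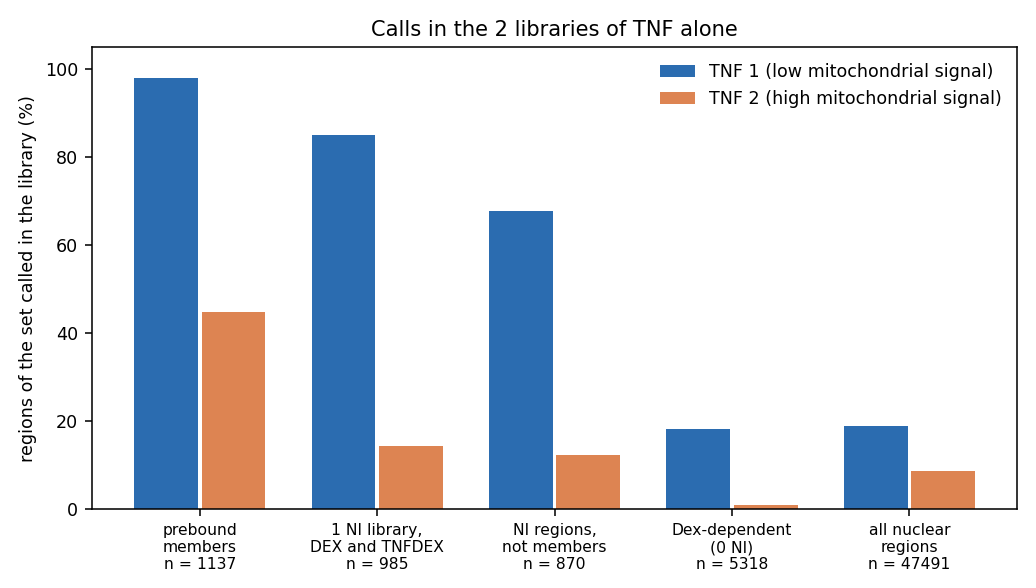
Share of 5 sets of regions, in percent, called in TNF 1 (blue) and in TNF 2 (orange). Prebound members reach 98% and 44.8%, regions with 1 NI call 85.1% and 14.4%, and Dex-dependent regions 18.1% and 0.959%.

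Among members called in all 3 NI libraries, the highest NI mean lay inside Skp2, which encodes the F-box protein that marks the cell cycle inhibitor p27 for destruction. This region, chr15:9114658-9114869, had 106.5, 149.8 and 33.4 normalized tags in NI 1, 2 and 3, a mean of 96.6 ± 58.8 (SD, n = 3). It had 189.9, 237.6 and 207.6 with Dex, 194.7 and 40.8 with TNF, and 264.6, 119.3 and 198.2 with TNF plus Dex. All 3 DEX libraries were above all 3 NI libraries, and the lowest value in each group came from a library of high mitochondrial signal, except in DEX. A second member in the same gene, chr15:9115078-9115279, was called in every library too and ran from 24.7 in NI 3 to 196.2 in TNFDEX 1. Members are named by their nearest protein-coding gene, which says nothing of the gene they act on.

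The next strongest sites of those called in all 3 NI libraries had unlike values with Dex. At chr4:73047892-73048090, 195.3 kb from Aldoart1, the NI libraries had 72.8, 146.4 and 26.2 tags and the DEX libraries 287, 354.3 and 482.5, with no overlap. Inside Nfatc2, a gene of a calcium-regulated transcription factor, chr2:168531983-168532330 had 81.2, 131.4 and 25.2 in NI and 99.6, 184 and 97.4 in DEX, and the groups overlapped. At chr9:61339363-61339555, 32.8 kb from Tle3, which encodes a Groucho-family corepressor, NI had 90.1, 123.2 and 19.9 and DEX had 91.2, 103.5 and 51.3. All DEX values lay within the range of NI. The region 231.9 kb from Nfib, a nuclear factor I gene, had 55, 100.5 and 22.8 in NI and 71.9, 95.3 and 37 in DEX. The other 5 of the 10 members with the highest NI means among those called in all NI libraries lay near Fut10, Slc39a11, Stard13, Skp2 and Gm5294, with NI means from 52.5 to 57.

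The member with the highest mean in TNF, called in both TNF libraries, lay 98.3 kb from Grhl2, a grainyhead-like transcription factor of epithelia. Chr15:37134357-37134544 had 107 and 193.3 tags in NI 1 and NI 2, no call in NI 3, 197.2 and 68.8 in TNF, and 132.4, 198.8 and 142.2 in DEX. A second member about 1 kb away, chr15:37135675-37135907, covered the start of the annotated transcripts Gm34820 and Gm41301. It had 75.3 and 122.3 tags in NI 1 and NI 2, 173.4 in TNF 1 and no call in TNF 2. NI 3 called neither of the Grhl2 sites. Over the NI libraries that called it, the first had a mean of 150.2, above the 96.6 of the Skp2 site. Both Grhl2 sites are among the 8 members with a median of at least 10 normalized input tags, with 15 each, and their median fold over input was 10.6 and 9.22.

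Levels with Dex were mostly above those in NI, by a smaller median factor in libraries of low than of high mitochondrial signal. Within libraries of low mitochondrial signal, 1064 members were called in NI 1, NI 2, DEX 1 and DEX 2, and their median DEX over NI ratio was 1.45-fold. It was above 2-fold for 242 of them (22.7%), where 17.5% of the 1396 nuclear regions called in the same libraries were, above 4-fold for 51 and below 0.5-fold for 0. Members make up 1064 of those 1396 regions and 242 of the 244 above 2-fold, so this background is mostly the members themselves. In the high set, DEX 3 over NI 3 had a median of 2.95-fold over the 195 members called in both. It was above 2-fold for 140 of them (71.8%), where 51.9% of the 283 nuclear regions called in both were. Members make up 195 of those 283 regions. Because the rule required calls in both groups, a region that lost GR with Dex could not be a member, and nothing is read from the direction. Members with little signal in NI had the larger ratios, although the NI level is also the denominator. The median was 1.7-fold for the 358 members with a mean of 7.05 to 13.2 in NI 1 and NI 2, 1.44-fold for the 354 members from 13.2 to 21.5 and 1.26-fold for the 352 members from 21.5 to 150.2.

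The test of level differences could reach few members, and the calls in the same libraries chose them, so its counts are a description. In the fit across all regions called in all NI and DEX libraries, 23 of 179 regions were higher with Dex (12.8%) and 8 were lower (4.47%) in limma at an adjusted p under 0.05. Of these regions 170 were members, and 23 of them were higher and 7 lower, so the tested set is nearly the members and the counts are no contrast with it. The fit centres each library on the tested regions, and each call is relative to that centring. Over the tested regions the median log2 difference was 0.76 towards DEX before centring and -0.09 after. With library totals in place of this centring, 32 members were higher and 0 lower. With the replicate number as a block, 33 members were higher and 13 lower, against 18.4% and 8.94% of the 179 regions. The count of tested regions was limited by NI 3, and without it 119 of 944 tested members were higher and 19 lower. Without NI 1 or NI 2 the count of higher members was 10 or 9, and without DEX 2 it was 11. Lower members numbered 0 or 1 when any of NI 1, NI 2 and the DEX libraries was left out. On the libraries of low mitochondrial signal alone, 180 of 1064 members were higher and 17 lower. Centring took the median log2 difference of the regions tested there from 0.41 to -0.05. Over all 1397 regions tested there, 180 were higher (12.9%) and 39 lower (2.79%).

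Among the 170 members called in all NI and DEX libraries, the largest gain was inside Tox, which encodes an HMG-box factor of lymphocyte development. Chr4:6914231-6914424 had 8.4, 20.3 and 10.2 tags in NI, 254.8, 349.7 and 532.5 in DEX, 23.8 in TNF 1, no call in TNF 2, and 323.1, 249.9 and 507 in TNFDEX. Every Dex library was above every library without Dex by an order of magnitude, and the log2 difference was 4.91 before and 4.06 ± 0.40 (SE) after centring. At 532.5 tags it was the highest member in DEX 3.

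Arf6, a small GTPase gene of membrane traffic, had the next gain among these 170, at chr12:69367725-69367957, 4.2 kb outside the gene. It had 23.8, 35.3 and 7.3 tags in NI and 157.6, 190.2 and 243.4 in DEX, a log2 difference of 2.56 ± 0.28 (SE). Chr11:28422981-28423214 inside Ccdc85a had 11.4, 18.4 and 7.8 in NI and 76.3, 105.5 and 179.2 in DEX (2.41 ± 0.33). Chr11:62826371-62826593 inside Trim16 had 12.9, 19.8 and 7.3 in NI and 68.9, 85.7 and 126.7 in DEX (2.03 ± 0.27). Yipf5 and Polr3b, which encodes a subunit of RNA polymerase III, completed the 6 largest gains of this fit with 2.34 and 1.72. In all 6 members the DEX values lay above the NI values without overlap, and the TNFDEX values did so as well. Members that NI 3 did not call lay outside the fit, and some had larger ratios than Arf6. One, inside Nlk, a kinase gene, was chosen after its values were seen and had 8.4 and 15 tags in NI 1 and NI 2 and 191.9, 228.4 and 349.8 in DEX.

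The 6 largest falls among these 170 members are relative to the centring. Inside Il1rap, which encodes the interleukin-1 receptor accessory protein, chr16:26590150-26590352 had 30.2, 47.4 and 9.7 tags in NI and 13.4, 26.5 and 12.1 in DEX. The groups overlapped, and DEX 3 was above NI 3. Its log2 difference was -0.56 before and -1.41 ± 0.29 (SE) after centring. TNF 1 had 60.8 there and TNF 2 had 7.3, while TNFDEX 1 had 44, TNFDEX 3 had 11.1 and TNFDEX 2 had no call. The start of Eef1a1, the gene of the elongation factor that brings aminoacyl-tRNA to ribosomes, had 9.4, 13 and 8.2 in NI and 7.9, 8.2 and 9 in DEX, with -0.26 before and -1.11 ± 0.30 after centring. Tex2, Bzw2, Tgfbr3 and Tnks2 had -1.30, -0.99, -0.92 and -0.80 after centring. With library totals none of the 6 passed the threshold and Tnks2 was at 0.05, above 0. Outside the fit, a member at the start of Plk2, a polo-like kinase gene, had 16.8 and 18.8 in NI 1 and NI 2, no call in NI 3, and 9.4, 12.7 and 10.3 in DEX, with no overlap. It was chosen after its values were seen.

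**Figure D3:**
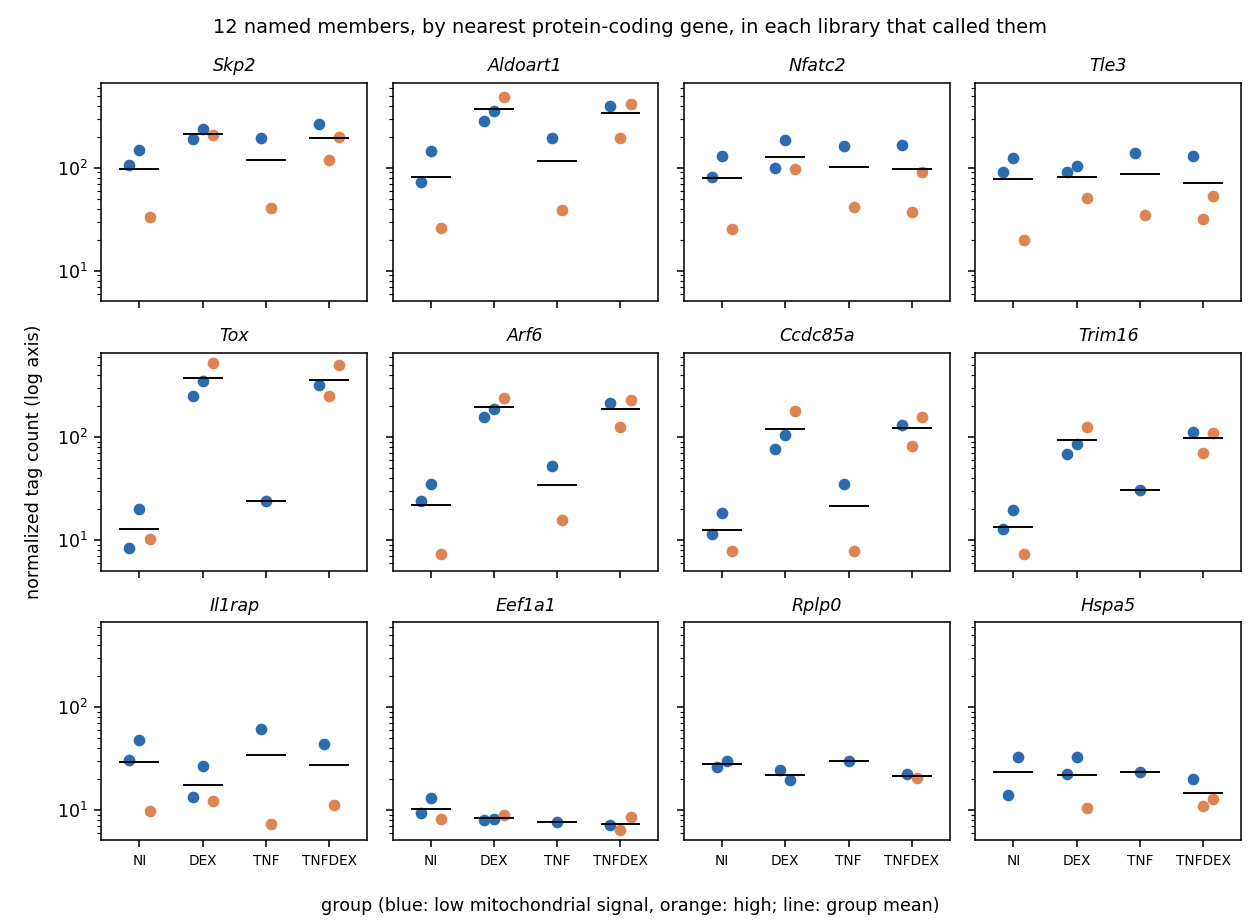
Normalized tag counts (log axis) of 12 members in every library that called them, by group. Blue points are libraries of low and orange points of high mitochondrial signal, and lines are group means. The Dex groups lie above the others for Tox, Arf6, Ccdc85a and Trim16, and the NI and DEX values overlap for Nfatc2, Tle3 and Hspa5.

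The Dex ratios of the members can be set side by side without and with TNF, since DEX over NI and TNFDEX over TNF share no library. Over 1047 members in the low set, the log2 ratios had a Pearson r of 0.83 and a Spearman rho of 0.77, a description across sites that share libraries and depth. Of the 239 members above 2-fold without TNF, 175 (73.2%) were above 2-fold with TNF, against 69 of the other 808 (8.54%). In the high set, with 126 members, r was 0.82 and rho 0.75, and 51 of the 100 above 2-fold without TNF (51%) were so with TNF, against 2 of the other 26 (7.69%). At gene starts it was 4 of 7 in the low set and 0 of 2 in the high set.

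Members at gene starts were few. A gene start is a promoter window of the reference that the member overlaps. There were 87 such members (7.65%), against 2.14% of Dex-dependent regions, 36.3% of the NI regions that were not members and 6.72% of all nuclear regions. Within 1 kb of an end of a protein-coding gene the shares were 9.23%, 4.1%, 48.7% and 13% in the same order. Inside a protein-coding gene span lay 40.3% of members and 43.8% of Dex-dependent regions, and farther than 50 kb from any such gene 31.8% and 26.5%. Of the members, 187 (16.4%) had a Dex-dependent region within 10 kb and 97 (8.53%) another member.

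At gene starts the median ratios were close to 1. In the low set the median DEX over NI ratio was 1.18-fold for 72 members at a gene start and 1.48-fold for 992 elsewhere, and in the high set 1.17-fold for 19 and 3.17-fold for 176. TNF 1 over NI 1 and NI 2 was 1.11-fold for 69 and 1.71-fold for 1025. TNFDEX over DEX in the low set was 1.05-fold for 76 and 1.61-fold for 1005. Members matched for an NI level of 10 to 20 gave a median DEX ratio of 1.19-fold for 40 at a gene start and 1.58-fold for 523 elsewhere. The classes were compared after earlier results were known, and members are not replicates, so no test is given. Per library, the log2 median elsewhere exceeded that at gene starts by 0.61 to 1.28 in the 6 Dex libraries and by -0.12 to 0.81 in the 5 without Dex. These ranges overlap through TNF 1, at 0.81. Over the 117 members called in all 11 libraries, 8 of them at a gene start, the ranges were 0.65 to 1.47 with Dex and -0.32 to 1.35 without, and both TNF 1 (1.35) and NI 2 (0.84) lay inside the range with Dex.

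**Figure D4:**
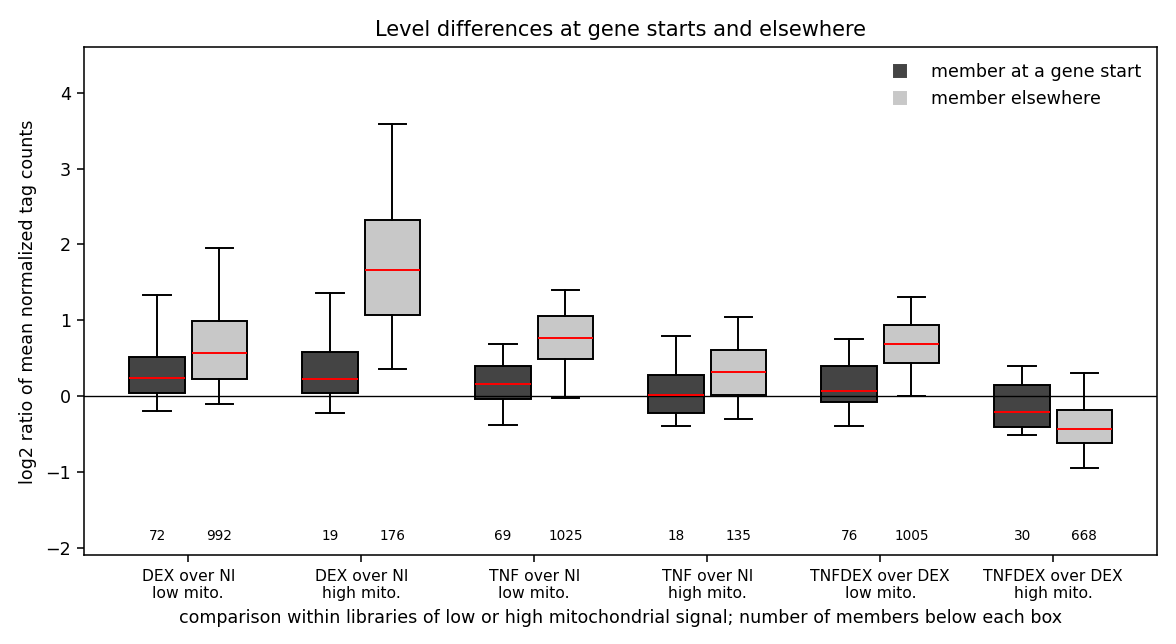
Log2 ratios of mean normalized tag counts of members at a gene start (dark) and elsewhere (light) for 3 comparisons, each within libraries of low or high mitochondrial signal. Boxes give quartiles, red lines medians and whiskers the 5th and 95th percentiles, with the number of members below. Medians at gene starts stay between -0.21 and 0.23, while those elsewhere run from -0.44 to 1.66.

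Among single members at a gene start, Rplp0, the gene of a ribosomal stalk protein, had 26.2 and 29.5 tags in NI 1 and NI 2, 24.3 and 19.4 in DEX 1 and DEX 2, 29.9 in TNF 1, and 22.4 and 20.6 in TNFDEX 1 and 3. The start of Hspa5, which encodes the endoplasmic reticulum chaperone BiP, had 13.9 and 32.4 in NI and 22.3, 32.6 and 10.3 in DEX. Mrpl12, a mitochondrial ribosomal protein gene, had 25.3, 21.3 and 19.9 in NI and 25.8, 29.1 and 18.1 in DEX. In each of these the groups overlapped or differed by a few tags. Foxj3, a forkhead factor gene, went the other way, with 21.8, 23.2 and 16 in NI, 46.1, 60.2 and 43.5 in DEX and 21.3 in TNF 1. Herpud1, a gene of the unfolded protein response, carried a start member with 9.4 and 11.6 in NI, 21.8 and 31.6 in DEX and 11.2 in TNF 1. A second member 8.6 kb outside it, at the Gm15889 start printed above, had 21.3 and 21.3 in NI, 108.1, 151.9 and 173.6 in DEX, 23.8 and 13.8 in TNF and 212.8, 67.7 and 174.7 in TNFDEX.

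For TNF before Dex against Dex alone, which the series title addresses, no member passed the test over all libraries. Of the 4023 tested regions, 683 were members, and 0 were higher and 0 lower in limma, against 1 higher (0.0249%) and 0 lower over all tested regions. At an unadjusted p under 0.05 there were 3 higher and 15 lower members. Without DEX 3, 7 members were lower. The 2 kinds of library disagreed in direction. The median TNFDEX over DEX ratio was 1.58-fold over 1081 members in the low set, where TNFDEX 1 is a single library, and 0.744-fold over 698 in the high set, against 1.67-fold and 0.781-fold over all nuclear regions called in the same libraries. In limma on the low set, 7 of 1081 members were higher, against 3.42% of all tested regions, and 47 lower, against 3.19%. These calls are relative to a shift of 0.76 on the log2 scale. TNFDEX 1 has no replicate in that fit, and the spread comes from DEX 1 and DEX 2. The smallest unadjusted p was at the region 2.6 kb from Gpatch2l, with 9.4, 11.7 and 9 tags in DEX and 24.9, 13.3 and 21.4 in TNFDEX, which did not overlap. Gm36323 had 26.8, 38.2 and 41.4 against 77.6, 41.5 and 66.6, and Smim20 had 21.3, 28 and 25.4 against 21.2, 10.2 and 22.6.

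TNF alone also gave no call against NI over all libraries. Of 152 tested regions 139 were members, and 0 of them were higher and 0 lower in limma (0% of all tested regions in either direction), with 0 at an unadjusted p under 0.05. With 2 TNF libraries of unlike kind, the median ratio was 1.68-fold over 1094 members for TNF 1 over NI 1 and NI 2 and 1.22-fold over 153 members for TNF 2 over NI 3. In the low set, 293 members (26.8%) were above 2-fold, and 1 below 0.5-fold, against 21.2% and 0.0603% of the 1659 nuclear regions called there, which are mostly the members themselves. In limma on the low set, 16 of 1094 members were higher, against 1.2% of all tested regions, and 18 lower, against 3.92%. These calls are relative to a shift of 0.67. TNF 1 has no replicate in that fit, and the spread comes from NI 1 and NI 2 alone. The smallest unadjusted p over all libraries were 0.0837 near Tex2, 0.093 near Pecr and 0.12 near Slc25a13, all with an adjusted p of 0.994 in limma. The members without a call in either TNF library numbered 19. The strongest of them in NI lay inside Igf2bp3, which encodes an RNA-binding protein of fetal tissue and tumours. It had 27.7 and 45.4 tags in NI 1 and NI 2 and 46.6, 55.1 and 87 in DEX. The next, inside Zbtb7b at the start of Gm15417, had 24.3 and 33.3 in NI and 38.2, 60.2 and 52.1 in DEX. A region without a call has no tag count, so the levels of both in TNF 1 and TNF 2 are not known.

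At small nuclear RNA (snRNA) genes, most members had lower values in TNF 1 than in NI and in TNFDEX 1 than in DEX. The RefSeq table labels as snRNA the genes of U1 and U11, which recognise splice sites, and of U3, which guides ribosomal RNA processing. Within 1 kb of such a gene lay 15 members (1.32%), against 0.158% of all nuclear regions and 0.0752% of Dex-dependent regions. The group was picked after its values were seen. Rnu3a at chr10:40258478-40258808 had 31.7 and 37.2 tags in NI 1 and NI 2, 40.2 and 33.6 in DEX 1 and DEX 2, 17.2 in TNF 1 and 20.3 in TNFDEX 1. Rnu11 at chr4:132269869-132270249 had 43.1 and 49.8 in NI, 46.6 and 48.4 in DEX, 34 in TNFDEX 1 and 41.1 in TNF 1. Rnu1a1 at chr11:87422960-87423209 had 26.7 and 35.3 in NI, 22.8 and 37.2 in DEX, 24.9 in TNFDEX 1 and 19.3 in TNF 1. TNF 1 lay below both NI libraries at each of these genes, and at Rnu3a and Rnu11 TNFDEX 1 lay below both DEX libraries.

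Over the 15 snRNA members in the low set, TNF 1 was below the NI mean at 12 and TNFDEX 1 below the DEX mean at 14. Among the other members this held for 62 of 1079 (5.75%) and 66 of 1066 (6.19%). The median ratios were 0.783-fold and 0.562-fold, against 1.69-fold and 1.59-fold for the other members. DEX over NI was 1.13-fold. The high set held few of them: TNF 2 over NI 3 had 1 such member, at 1.38-fold, and TNFDEX over DEX had 4, with a median of 1.19-fold. The other members had medians of 1.22-fold and 0.744-fold there, so the snRNA members did not lie below them in the high set. Genes of U1 and U3 have near-identical copies, several of them in 1 cluster beside Tex14, and how tags that fit several copies were placed is not given in the sources used here, so values of single copies are uncertain.

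**Figure D5:**
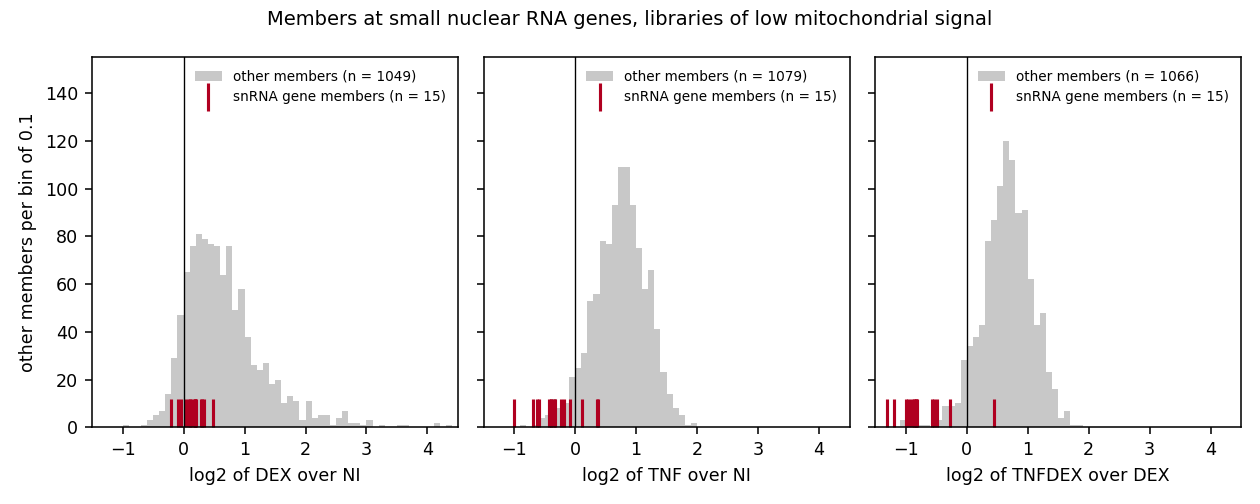
Log2 ratios of DEX over NI, TNF over NI and TNFDEX over DEX in the libraries of low mitochondrial signal, as a histogram of the other members (grey, members per bin) and as red ticks for the 15 members within 1 kb of an snRNA gene, whose height has no meaning. The ticks lie near 0 in the first panel and mostly below 0 in the others.

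Classic hormone targets had a member nearby in a share near that of all genes. Of 28 glucocorticoid response genes, 2 (7.14%) had a member within 50 kb, against 6.24% of the 21900 protein-coding genes, while 23 (82.1%) had a Dex-dependent region, against 23.3%. Those 2 were Tsc22d3, which encodes the anti-inflammatory protein GILZ, and Dusp1, a phosphatase gene that switches off MAP kinases. The Dusp1 region, 6.3 kb outside the gene, had 8.9 and 13.5 tags in NI 1 and NI 2, 17.3 and 14.2 in DEX 2 and DEX 3, 9.1 in TNF 1 and 26.1, 16.8 and 32.9 in TNFDEX. The Tsc22d3 region lies nearest to Prps1 and had 9.4 and 10.1 in NI and 11.9, 21.9 and 36.6 in DEX. Both were weak in NI, and every DEX library that called them was above both NI libraries.

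Members lay near 4 of 16 chaperone genes (25%), namely Hspa5, Hspa1a, Hspa1b and Dnaja1, of which Hspa1a and Hspa1b share a member. They lay near 4 of 19 clock genes (21.1%), Per2, Per3, Dbp and Bhlhe40, and near 4 of 24 hepatocyte genes (16.7%), Cebpa, Alb, Afp and Trf, where Alb and Afp share a member. The background is 6.24% of all protein-coding genes. Dex-dependent regions lay near 43.8%, 52.6% and 70.8% of the 3 lists, against 23.3% of all such genes. The clock repressor gene Bhlhe40 had a member 1.5 kb away with 17.3 and 19.3 tags in NI, 41.6, 67.8 and 87.5 in DEX, 36 and 11 in TNF and 99.1, 48.1 and 113.1 in TNFDEX, and the Dex values lay above the rest. Per3, a period gene, had one with 10.4 and 15.9 in NI, 21.8 and 30.6 in DEX 1 and DEX 2 and no call in DEX 3. It had 20.8 in TNF 1 and 41.1, 11.7 and 15.6 in TNFDEX, where TNFDEX 2 and TNFDEX 3 lay within the NI range. The NI and DEX values near the other clock genes overlapped. They were 10.4 and 14 in NI and 13.9, 22.9 and 12.9 in DEX near Per2. Near Dbp they were 19.3, 20.3 and 15 in NI and 25.5 and 17.7 in DEX. The Cebpa site, 12.8 kb from the gene of this liver transcription factor, had overlapping values, with 19.3 and 36.7 in NI and 32.2, 33.6 and 22.8 in DEX. The site between Alb and Afp, genes of albumin and its fetal relative, had 11.9 and 15.9 in NI and 15.9, 26 and 20.2 in DEX.

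Against the same background of 6.24%, ribosomal protein genes had a member in 11 of 84 (13.1%), translation factor genes in 2 of 20 and NF-kB and TNF target genes in 2 of 26 (Nfkbie and Bcl3). A member 39.2 kb from Nr3c1, the GR gene, had 11.9 and 16.4 in NI and 14.4, 26 and 14.2 in DEX. The Bcl3 site, inside Ceacam16, had 30.7 and 47.4 in NI, 34.7, 50 and 37.5 in DEX, 76.5 in TNF 1 and 84.6, 21.1 and 49.3 in TNFDEX. AP-1 and immediate early genes had a member at 0 of 20, histone genes at 0 of 77. Macrophage marker genes had 1 of 12 (Adgre1) and stromal and endothelial marker genes 2 of 11 (Dcn and Stab2). Over all lists, 34 of 351 genes had a member within 50 kb, and several of these shares rest on 1 or 2 genes.

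The median width of the members was 229 bp, from 180 to 631 bp, against 173 bp for all regions. The median share of a peak's tags on the expected strands around its centre, the focus ratio, was 0.792 for members and 0.811 for Dex-dependent regions. Median fold over input per library ran from 9.55 to 28.1, and 8 members had a median of at least 10 normalized input tags. Of the members with the most peaks merged, 11, the widest lay inside Rad51b, Phactr2 and Smarce1 and near Gata3 and Mbip, from 415 to 477 bp. The Smarce1 member, at a gene of a chromatin remodelling subunit, was the steadiest of these, with 10.4, 8.7 and 8.2 in NI, 10.9, 11.7 and 10.8 in DEX, 14.7 and 11 in TNF and 12.9, 7.4 and 10.7 in TNFDEX. Clusters of 3 members lay near Cypt12, Tomm7 and Slc25a36, spanning 6.86, 9.01 and 17.3 kb.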

How the data were processed

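GR ChIP-seq peak lists of 11 libraries were used, each tied to its sample by the submitters. The submitters' processing notes name HOMER 4.6, Bowtie 1.0.0, CASAVA 1.8 and the build mm10. Per the file headers, peaks were called per library against 1 input library at an FDR of 0.001, at least 4-fold over input and over a local region of 10000 bp and with a Poisson p-value limit of 0.0001. The deposited signal is a normalized tag count per peak, scaled to 20000000 tags. The deposited lists also give a focus ratio (a fraction), a score, fold ratios over input and p-values per peak, which are the authors' own values and served here for description and for the stricter peak alternatives.

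From these, peaks sharing at least 1 bp were merged, and a library's level at a region was its highest normalized tag count there. A region without a peak has no value, so each fit holds the regions with a peak in all libraries of its 2 groups. Levels were compared on the log2 scale without a pseudocount, with trimmed-mean centring and limma 3.58.1 in R 4.3.3, Benjamini-Hochberg adjusted over all tested regions. The same fit was also run on data simulated from the levels and spread of these libraries. A count test was planned for raw counts and not used, since the tags were counted in a window of each library's own. Python 3.11.15, pandas 2.3.3 and matplotlib 3.10.9 did the rest. Gene names and positions are from RefSeq for GRCm38.p6.

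The members and gene lists were chosen with earlier results of these data known. Named members are the 10 highest in NI called in 3 of 3 NI libraries, the 6 largest rises and falls past the threshold in DEX against NI, the 3 smallest p in the other comparisons, up to 3 per gene list, 5 highest in TNF and 5 highest in NI with no TNF call, and the 5 of most peaks or greatest width. Members at gene starts, snRNA members and those named in comparisons of these classes were added after their values were seen. Replicate numbers in the titles were checked as pairs over deviations from group means. For DEX and NI the same-numbered libraries correlated at 0.52, 0.54 and 0.68. DEX 2 with NI 1 was at 0.49 and DEX 1 with NI 2 at 0.37, and the other unlike-numbered pairs ran from -0.62 to -0.53. NI 3 and DEX 3 are also the 2 of high mitochondrial signal, so number and that signal cannot be told apart for them. The main fit has no block, and the fit with the replicate number as a block is given beside it. Alternatives covered the merging overlap, stricter peaks, scaling, filters, a pseudocount, a replicate block, the mitochondrial signal and each library left out. The count for the list of GR and its coregulators is not reported here.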

Additional observations from a re-analysis of the deposited data

How the results depend on the processing

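The number of members, 1138 with the mitochondrial region, was 1097 when peaks had to share 50% of the shorter one, 148 with calls in 3 of 3 of each group, 670 at 8-fold over input, 370 at a tag count of at least 15 and 287 with the 2524 strongest peaks of each list. Leaving out each library gave 190 to 1113. The share called in TNF was 99.2% at a tag count of at least 15 and 98.2% at 8-fold over input. It was 44.8% without TNF 1 and 98% without TNF 2. The share near gene ends was 8.16% to 10.9%. Over all lists, 18 genes had a member within 10 kb and 44 within 100 kb.

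For DEX against NI, 23 members were higher and 7 lower. With library totals 0 were lower, with a pseudocount of 1 there were 4 lower, and with mitochondrial signal as a term 37 higher and 19 lower. On the libraries of low mitochondrial signal, chosen after seeing the data, 180 of 1064 members were higher and 17 lower. Over all 1397 regions tested there, 12.9% were higher and 2.79% lower. Leaving out each library gave 9 to 119 higher and 0 to 19 lower. With the replicate block, which pairs libraries of the same number, there were 13 lower. The reversed value was Tnks2 with library totals, 0.05. In those and the other alternatives the cause was not tested.

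For TNFDEX against DEX, both counts stayed at 0 except for 7 lower without DEX 3 (0 to 7 over all libraries left out) and 7 higher and 47 lower in the low set. For TNF against NI they stayed at 0 except for 1 lower with mitochondrial signal as a term and 16 higher and 18 lower in the low set. The replicate block, where numbers did not pair the libraries in these 2 comparisons (correlations of 0.37, -0.37 and 0.58, and of 0.51 and -0.65), changed no count of members. Levels under about 6 tags were not called, so a missing call does not show absence.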
